A study of Mus musculus with 6 samples.

Results

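A set of 10 cell adhesion genes of the immunoglobulin superfamily was followed in the striatum of young mice whose sires had received methylphenidate or saline. They are the Down syndrome cell adhesion molecule gene Dscam and its relative Dscaml1, the sidekick genes Sdk1 and Sdk2, and the contactin genes Cntn1 to Cntn6. They were taken by gene symbol from the deposited table, where 10 of 10 were found among 45777 genes, and 10 of 10 passed the filter on low counts that left 17874 genes for testing. The members were chosen by family after the count difference of Dscam between these groups had been measured, so every difference between the groups below is a description and supports nothing by itself.

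The methylphenidate-sired group held 3 offspring (F1) of 6-week-old ICR males given 15 mg/kg methylphenidate under the skin on each of 21 days, and the saline-sired group held 3 offspring of males given 10 mL/kg saline in the same way. All dams were drug-free, and all offspring were untreated 6-week-old ICR mice, an outbred stock, as far as the labels say. Each group had females and a male, but no column of the table could be tied to a labelled animal, so each library goes by its group and the number in its column name. How many sires and litters the offspring came from is not stated, and the p-values therefore reflect the spread among these 6 libraries alone.

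Proteins of this family carry rows of immunoglobulin domains followed by fibronectin type III repeats. Dscam, Dscaml1 and the sidekicks span the membrane and bind copies of themselves on other cells, and in the mouse retina Dscam and Dscaml1 keep neurites and cell bodies of a type apart. Contactins have no transmembrane part and are held on the outer face of the membrane by a lipid anchor. They work with partners in the same or the facing membrane, and the contactins of myelinated axons organise the junctions beside the nodes of Ranvier.

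Dscam and Cntn1 were the members whose groups did not overlap, and the 250 bases before a start that the RefSeq promoter table lists for each are shown for that reason (GRCm38.p6, the assembly that mm10 names, written along the strand of the gene). The listed start lies 378 bases inside the outermost annotated start of Dscam and 13 bases inside that of Cntn1, so the Dscam window lies wholly, and the Cntn1 window by those 13 bases, within the annotated span of the gene. Capitals mark the dinucleotide CG.
Dscam, chr16:97170736-97170985, minus strand: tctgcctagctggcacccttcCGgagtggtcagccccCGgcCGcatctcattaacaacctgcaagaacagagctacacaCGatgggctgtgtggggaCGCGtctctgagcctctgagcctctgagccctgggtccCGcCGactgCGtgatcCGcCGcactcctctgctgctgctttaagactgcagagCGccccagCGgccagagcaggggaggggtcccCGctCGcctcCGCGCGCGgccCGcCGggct
Cntn1, chr15:92050915-92051164, plus strand, the first of its listed starts: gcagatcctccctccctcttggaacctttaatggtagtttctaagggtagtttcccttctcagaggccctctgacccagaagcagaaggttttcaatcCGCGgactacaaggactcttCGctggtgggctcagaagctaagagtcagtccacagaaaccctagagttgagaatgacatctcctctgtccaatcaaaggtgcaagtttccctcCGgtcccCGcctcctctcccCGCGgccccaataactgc
The Dscam window held 21 CG and 68.0% G or C, and 16.35% of 32851 RefSeq windows of that length held as many CG or more. The Cntn1 window held 7 CG and 53.6% G or C, and 46.3% of windows held as many or more, with CG present at least once in 92.1% of windows. Of the members 9 of 10 had an entry, and the windows were not compared between them, since several listed starts lie far inside the gene. Dscaml1 is named only.

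Most members are very long genes. Apart from Cntn2, each spanned 290.7 kb or more, against a median of 17.2 kb over 21769 coding genes of the table, and Cntn5 was the longest at 1270.6 kb. Cntn2 spanned 33.8 kb. Cntn3, Cntn6 and Cntn4 lie on chromosome 6 within 4.54 Mb (102163304 to 106700141), where the single other coding gene is Chl1, an L1-type adhesion gene. Dscam lies on chromosome 16 (96587452 to 97171113), Dscaml1 on chromosome 9 (45427433 to 45753713), Sdk1 on chromosome 5 (141241497 to 142215586), Sdk2 on chromosome 11 (113776374 to 114067029), Cntn1 on chromosome 15 (92051152 to 92341967), Cntn2 on chromosome 1 (132509425 to 132543251) and Cntn5 on chromosome 9 (9634223 to 10904775).

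Total counts lay between 31360042 and 38844724 per library. Medium spiny neuron markers, which define striatal projection neurons, were abundant, with summed levels of 9664 to 10875 CPM (counts scaled to a common library size) in the methylphenidate-sired and 11501 to 12320 CPM across the saline-sired libraries. Markers of cortical excitatory neurons summed to 1473 to 1639 CPM in the methylphenidate-sired and 694 to 1263 CPM across the saline-sired libraries, without overlap. Of these 14 cortical markers 13 had a positive log2 fold change (median 0.75), against 47% of all genes tested, and of the 14 medium spiny neuron markers 14 had a negative one (median -0.20). In each list 0 passed the edgeR test, where 0.0224% of all genes tested did. DESeq2 called 3 in each, against 1.42% of the genes to which it gave an adjusted p. At an unadjusted p under 0.05, 9 cortical markers were higher, against 5.07% of all genes, and 9 medium spiny neuron markers were lower, against 3.95% of all genes. The marker lists here and below were chosen with earlier results of these data known, so these shares are a description. Choroid plexus markers summed to 37.0 to 85.9 CPM in the methylphenidate-sired libraries and to 2108, 370 and 30.6 CPM in saline-sired libraries 3, 4 and 5. On the first principal component, with 27.0% of the variance, saline-sired libraries 3 and 4 lay away from the rest. In bulk RNA, fewer cells of a type and less RNA per cell cannot be told apart.

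The first question was how abundant each adhesion gene is in this tissue. Per exon length, Cntn1 led the family at 39.7 ± 3.05 CPM per kb (SD over 6 libraries), followed by Cntn2 at 22.1 ± 2.57 CPM per kb. Cntn4 followed at 6.79 ± 0.688, Dscam at 5.11 ± 0.754, Dscaml1 at 4.61 ± 0.520 and Cntn5 at 4.15 ± 0.419 CPM per kb. The lowest levels were those of Cntn3 at 2.53 ± 0.199, Cntn6 at 2.40 ± 0.160, Sdk2 at 1.65 ± 0.301 and Sdk1 at 0.749 ± 0.212 CPM per kb. In this order the ranges over the libraries overlapped between Cntn4 and Dscam, between Dscam and Dscaml1, between Dscaml1 and Cntn5, and between Cntn3 and Cntn6, and they did not overlap between the other neighbours. Cntn1 made up 51.3% to 54.6% of the summed contactin level per kb in the methylphenidate-sired and 47.1% to 51.6% in the saline-sired libraries. With the longest transcript as the length, Dscam and Dscaml1 changed places, and so did Cntn3 and Cntn6.

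**Figure D1:**
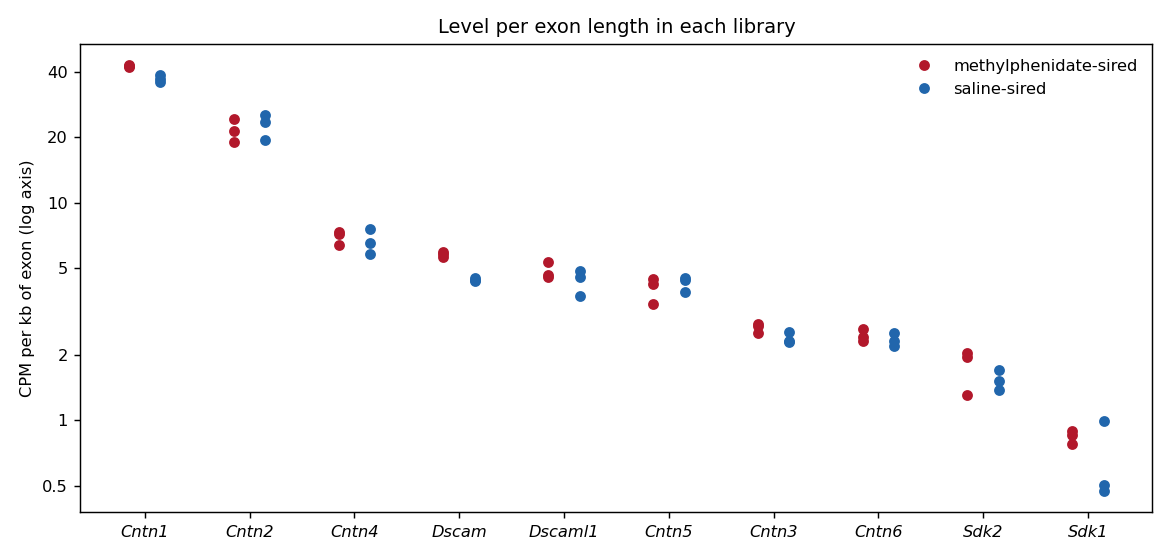
Each point is the level of a gene in 1 library, in CPM per kb of annotated exon on a log axis, with methylphenidate-sired libraries in red and saline-sired libraries in blue. Genes are ordered by their mean, from Cntn1 at 39.7 to Sdk1 at 0.749 CPM per kb.

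The second question was how these genes differed with the treatment of the sire. Of the 10 members 0 passed the test over all genes in either direction (quasi-likelihood test of edgeR, adjusted p under 0.05), where 0.0224% of the 17874 genes tested did. The smallest adjusted p among the members was 0.340, that of Dscam. At an unadjusted p under 0.05 there were 2 members, Dscam and Cntn1, both higher, against 9.02% of all genes (5.07% higher and 3.95% lower). DESeq2 called 1 member, Dscam, in the higher direction, against 1.42% of the genes to which it gave an adjusted p (1.13% higher), and limma-voom called 0 against 0.0224%. Positive log2 fold changes were found for 8 of 10 members, under TMM as under the DESeq2 size factors, with a median of 0.15 over the members and -0.01 over all genes tested, of which 47% were positive. The count of positive members was 6 of 10 without saline-sired libraries 3 and 4, and also with cortical markers as a covariate. The groups did not overlap for 2 members, both higher in the methylphenidate-sired group, and 7.84% of all genes were without overlap in that direction and 7.01% in the other (14.8% in all). Since the members were proposed from this comparison, nothing is read from these shares.

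Dscam encodes the founding member of the family, a receptor that holds neurites of like cells apart and has been described as a netrin receptor. Its counts were 1630, 1631 and 1764 in methylphenidate-sired libraries 2, 4 and 6, against 1534, 1226 and 1241 in saline-sired libraries 3, 4 and 5. Scaled to library size it stood at 49.6, 51.0 and 52.2 CPM in the methylphenidate-sired and at 38.6, 38.5 and 39.8 CPM across the saline-sired libraries. All 3 methylphenidate-sired libraries lay above all 3 saline-sired ones, and the raw counts did so too. The mean was 50.95 ± 1.29 CPM in the methylphenidate-sired and 38.97 ± 0.725 CPM in the saline-sired group (SD, n = 3 each), a 1.31-fold difference. These read numbers carry a counting error of 2.38% to 2.86%. The spread within the methylphenidate-sired group was 2.53% of the mean, close to its mean counting error of 2.44%. That of the saline-sired group was 1.86%, below its mean counting error of 2.75%. An SD from 3 libraries is itself uncertain.

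The log2 fold change of Dscam was 0.39 (SE 0.06), at place 12 of 17874 genes by unadjusted p, and the family was proposed with this rank known. It did not pass in edgeR (adjusted p = 0.340) or limma-voom (adjusted p = 0.362), and DESeq2 gave an adjusted p = 0.00187. Without each library in turn the log2 fold change lay between 0.37 and 0.42, with edgeR adjusted p between 0.0941 and 0.818. It was 0.35 (SE 0.09, edgeR adjusted p = 0.990) with cortical markers as a covariate. Without saline-sired libraries 3 and 4, which leaves a single saline-sired library, it was 0.36. Exons of 2 noncoding genes on the other strand overlap those of Dscam over 1.125% and 1.977% of its exon length, and without a stated strand setting their reads cannot be told apart from its own.

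Dscaml1, the closest relative of Dscam, did not show the same picture. It stood at 47.5, 41.3 and 40.7 CPM in the methylphenidate-sired and at 43.4, 33.3 and 40.4 CPM across the saline-sired libraries, and the groups overlapped. The log2 fold change was 0.14 (SE 0.11, edgeR adjusted p = 0.732) and -0.01 with cortical markers as a covariate. Saline-sired library 4 was the lowest, and without it the log2 fold change was 0.04. The ratio of both genes within a library needs no scaling. Dscam had 1.05, 1.23 and 1.28 reads per Dscaml1 read in the methylphenidate-sired libraries and 0.889, 1.16 and 0.986 in the saline-sired libraries, which overlapped because saline-sired library 4 lay above methylphenidate-sired library 2.

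Sidekick proteins direct neurites to matching layers of the retina, Sdk2 among them in the mouse. Sdk1 was the scarcest member, with 326, 302 and 292 counts in the methylphenidate-sired and 209, 178 and 341 counts in the saline-sired libraries. This is 9.92, 9.45 and 8.64 CPM in the methylphenidate-sired and 5.26, 5.59 and 10.9 CPM across the saline-sired libraries. Saline-sired libraries 3 and 4 were low, while saline-sired library 5 was the highest of all 6, so the groups overlapped. The spread was 6.96% of the mean in the methylphenidate-sired and 43.9% in the saline-sired group, against a counting error of at most 7.50%.

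The log2 fold change of Sdk1 was 0.37 (SE 0.27, edgeR adjusted p = 0.717). It was 0.80 (edgeR adjusted p = 0.0989) without saline-sired library 5, 0.17 with saline-sired library 3 left out and 0.21 with library 4 of that group left out. With both of these left out it was -0.23. The cortical marker sum was 1473, 1497 and 1639 CPM in the methylphenidate-sired libraries, against 978, 694 and 1263 CPM in saline-sired libraries 3, 4 and 5, so it was lowest in the same 2 libraries as Sdk1. With cortical markers as a covariate the log2 fold change of Sdk1 was -0.10 (SE 0.29). Their part in the difference was not tested beyond that fit, since the cortical level itself differs between the groups.

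Sdk2 varied most among the methylphenidate-sired libraries, at 31.4, 20.3 and 30.3 CPM, against 21.2, 23.5 and 26.3 CPM across the saline-sired libraries. Methylphenidate-sired library 4 was the lowest of all 6, although libraries 2 and 6 of its group were the highest. The log2 fold change was 0.21 (SE 0.17, edgeR adjusted p = 0.740), and lay between 0.11 and 0.40 without each library in turn. It was 0.40 without methylphenidate-sired library 4, 0.11 without library 2 of that group, 0.13 without its library 6 and 0.13 without saline-sired library 3. It was 0.11 with cortical markers as a covariate and 0.05 without saline-sired libraries 3 and 4. Reads of Sdk1 per read of Sdk2 were 0.317, 0.467 and 0.285 in the methylphenidate-sired and 0.248, 0.238 and 0.415 in the saline-sired libraries, so the balance between both sidekicks shifted from library to library and overlapped between the groups.

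**Figure D2:**
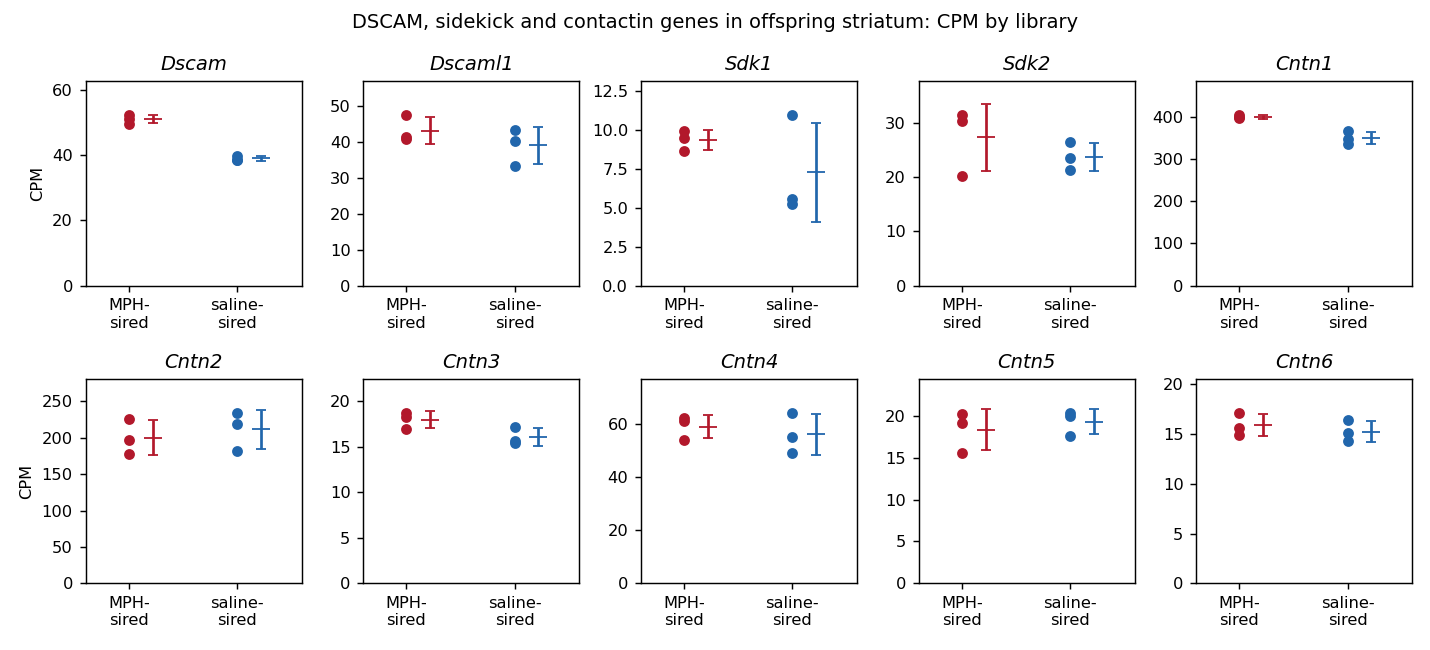
CPM of each member by library, with axes from 0. Points are libraries, with the methylphenidate-sired (MPH-sired) group in red on the left and the saline-sired group in blue on the right, and the bar beside them is the mean ± SD of 3. The groups are apart for Dscam and Cntn1 and overlap for the other 8 genes.

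Cntn1 is the contactin of the paranodal junction, where it pairs with the contactin-associated protein of Cntnap1 to join axon and myelin. It was the most abundant member and stood at percentile 98.0 of the tested genes by level. It stood at 403, 396 and 399 CPM in the methylphenidate-sired and at 348, 336 and 365 CPM across the saline-sired libraries, without overlap. The mean was 399 ± 3.94 CPM in the methylphenidate-sired and 350 ± 14.5 CPM in the saline-sired group (SD, n = 3 each), a 1.14-fold difference. The log2 fold change was 0.19 (SE 0.06, edgeR adjusted p = 0.457; DESeq2 adjusted p = 0.0809), and it lay between 0.16 and 0.24 without each library in turn. It was 0.12 (SE 0.08) with cortical markers as a covariate and 0.13 (SE 0.07) without saline-sired libraries 3 and 4. Cntnap1 itself was at 343, 425 and 435 CPM in the methylphenidate-sired and at 442, 489 and 367 CPM across the saline-sired libraries, with overlap and a log2 fold change of -0.11 (SE 0.12).

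Cntn2 acts at the neighbouring juxtaparanode, where it helps to hold potassium channels with the protein of Cntnap2, and it is made by neurons and by oligodendrocytes. It stood at 177, 197 and 226 CPM in the methylphenidate-sired and at 219, 234 and 181 CPM across the saline-sired libraries, and the groups overlapped. Its log2 fold change was -0.08 (SE 0.12, edgeR adjusted p = 0.869). It turned to 0.02 without methylphenidate-sired library 2 and to 0.0013 without saline-sired library 4. Markers of oligodendrocytes, the myelinating cells, summed to 7487, 9782 and 10157 CPM in the methylphenidate-sired and to 9614, 13819 and 7372 CPM across the saline-sired libraries. For Cntn2 and for these markers alike, saline-sired library 4 was the highest, methylphenidate-sired library 6 came next, and methylphenidate-sired library 2 and saline-sired library 5 were the lowest. Of the 10 oligodendrocyte markers 10 had a negative log2 fold change (median -0.21), as did 9480 of all 17874 genes tested. In this list 0 passed the edgeR test, where 0.0224% of all genes did. DESeq2 called 0, against 1.42% of the genes to which it gave an adjusted p. At an unadjusted p under 0.05 in edgeR there were 0, against 9.02% of all genes. The part of the oligodendrocyte share in the level of Cntn2 was not tested.

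Reads of Cntn2 per read of Cntn1 were 0.439, 0.499 and 0.566 in the methylphenidate-sired and 0.628, 0.696 and 0.497 in the saline-sired libraries. Saline-sired library 5 fell within the methylphenidate-sired range, so this ratio overlapped between the groups.

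**Figure D3:**
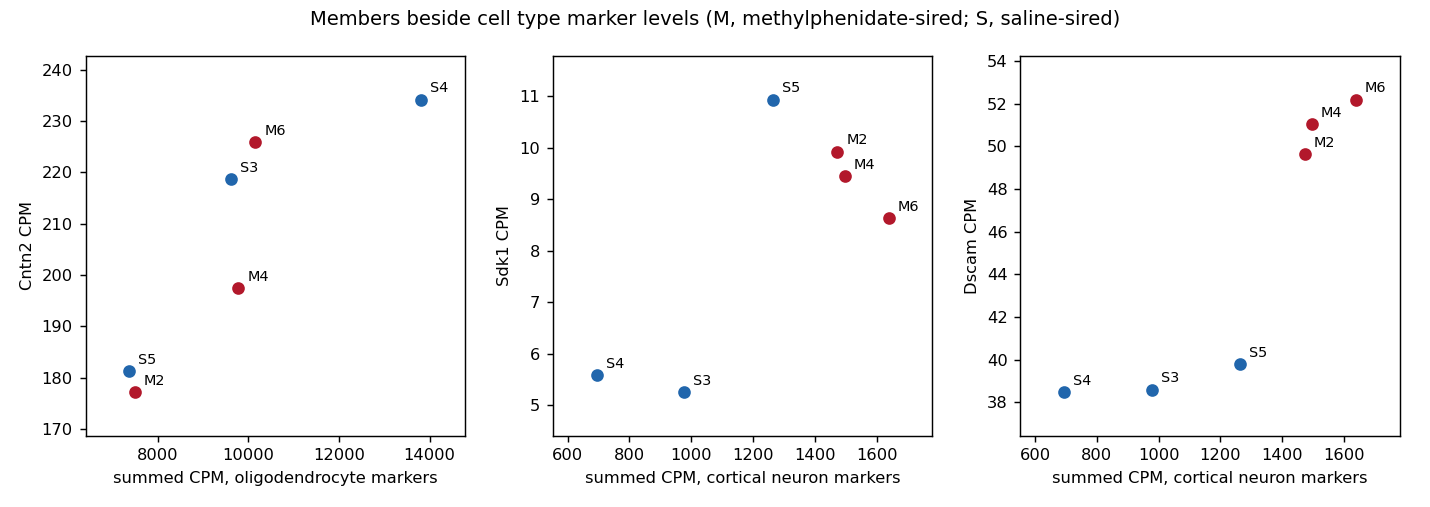
CPM of Cntn2 against the summed CPM of 10 oligodendrocyte markers, and CPM of Sdk1 and of Dscam against the summed CPM of 14 cortical neuron markers, each point a library. M2, M4 and M6 are methylphenidate-sired and S3, S4 and S5 saline-sired libraries. S3 and S4 are low for Sdk1 and for the cortical markers. The 3 saline-sired libraries lie at 38.5 to 39.8 CPM for Dscam. The cortical marker sum differs between the groups without overlap, and its part in Sdk1 and Dscam was not tested beyond the covariate fit.

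Cntn3 to Cntn6 are expressed in subsets of neurons, and their proteins can bind the receptor phosphatase of Ptprg. Cntn3, known for promoting neurite outgrowth in culture, was at 16.9, 18.2 and 18.7 CPM in the methylphenidate-sired and at 17.2, 15.4 and 15.6 CPM across the saline-sired libraries. Saline-sired library 3 lay above the lowest methylphenidate-sired library, so the groups overlapped (log2 fold change 0.16, SE 0.09, edgeR adjusted p = 0.649). Cntn4, which guides olfactory axons in the mouse, was at 61.0, 54.0 and 62.3 CPM in the methylphenidate-sired and at 55.1, 49.0 and 64.2 CPM across the saline-sired libraries. Its log2 fold change was 0.07 (SE 0.11, edgeR adjusted p = 0.864), -0.01 with saline-sired library 4 left out and 0.19 with library 5 of that group left out.

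Cntn5, best known from the auditory pathway, was at 19.2, 20.2 and 15.6 CPM in the methylphenidate-sired and at 17.5, 20.35 and 19.98 CPM across the saline-sired libraries. The log2 fold change was -0.07 (SE 0.12, edgeR adjusted p = 0.887) and 0.03 without methylphenidate-sired library 6, its lowest. Exons of the antisense-strand gene Gm32710 overlap 6.40% of its exon length, so its count is uncertain. Cntn6, which in the mouse bears on motor coordination, was at 17.1, 15.0 and 15.6 CPM in the methylphenidate-sired and at 14.3, 15.1 and 16.4 CPM across the saline-sired libraries (log2 fold change 0.06, SE 0.10, edgeR adjusted p = 0.892). It had the smallest spread of the 10 members, 6.69% of the mean over the 6 libraries, against a counting error of 4.20% to 4.57%. Of the contactin genes of chromosome 6, Cntn4 and Cntn6 had their 3 highest levels in the same libraries, methylphenidate-sired 2 and 6 and saline-sired 5. Cntn3 was highest in methylphenidate-sired libraries 6 and 4. Chl1, between them on the chromosome and named here for that position, was at 104, 125 and 122 CPM in the methylphenidate-sired and at 109, 80.8 and 96.0 CPM across the saline-sired libraries, with overlap (log2 fold change 0.30, SE 0.12, edgeR adjusted p = 0.499).

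**Figure D4:**
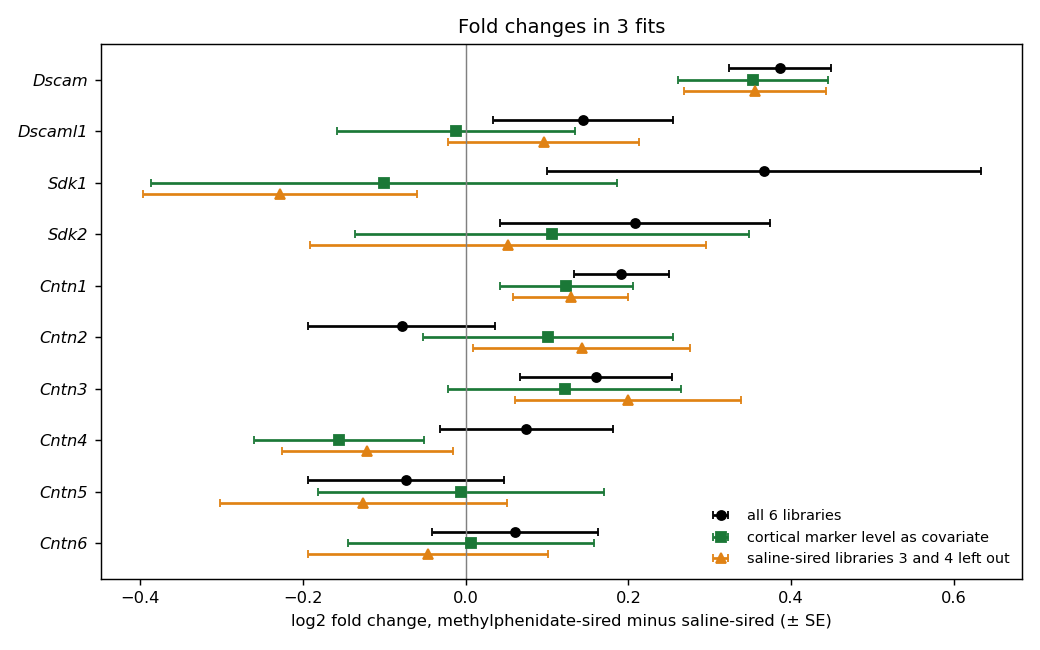
Log2 fold change (methylphenidate-sired minus saline-sired) with its SE for each member, in the fit of all 6 libraries, with cortical markers as a covariate, and without saline-sired libraries 3 and 4. The last of these fits leaves a single saline-sired library, which is assumed to vary like the others. Dscam stays between 0.35 and 0.39, while Dscaml1, Sdk1, Cntn2, Cntn4 and Cntn6 lie on either side of 0 depending on the fit.

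Over the 6 libraries, the genes whose centred log2 CPM profile lay nearest to that of Dscam were Ttc39b, Nuak1 and Rph3a, with root mean square differences of 0.05, 0.06 and 0.06 on the log2 scale. They were picked for that likeness, so their difference between the groups follows from the choice and is no further result. Rph3a, which encodes the vesicle protein rabphilin, was at 444, 483 and 444 CPM in the methylphenidate-sired and at 358, 358 and 382 CPM across the saline-sired libraries. Nuak1, a kinase gene, was at 48.6, 51.7 and 56.5 CPM in the methylphenidate-sired and at 41.8, 38.7 and 42.5 CPM across the saline-sired libraries. Within the family Cntn1 was nearest (0.10) and Sdk1 farthest (0.33).

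Partners and relatives of these proteins were read from 3 lists, which share some genes. The lists were chosen with earlier results of these data known. Of 24 genes for binding partners and scaffolds of contactins and Dscam, 0 passed the edgeR test in either direction, with 2 higher and 1 lower at an unadjusted p under 0.05, none called by DESeq2 and a median log2 fold change of 0.06. Over all genes tested, 5.07% were higher and 3.95% lower at that unadjusted p, and the median was -0.01. Of all genes tested 0.0224% passed the edgeR test, and DESeq2 called 1.42% of the genes to which it gave an adjusted p. Ptprg was at 78.1, 75.6 and 76.5 CPM in the methylphenidate-sired and at 67.1, 61.5 and 72.8 CPM across the saline-sired libraries, without overlap (log2 fold change 0.19, SE 0.07, edgeR adjusted p = 0.493). For Notch2, a Notch receptor gene, the log2 fold change was -0.35 (SE 0.13, edgeR adjusted p = 0.491), with overlap between the groups.

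Of 14 genes of nodes, paranodes and juxtaparanodes, 0 passed the edgeR test, where 0.0224% of all genes did. DESeq2 called 0, against 1.42% of the genes to which it gave an adjusted p. At an unadjusted p under 0.05, 0 were higher and 1 was lower, against 5.07% and 3.95% of all genes. Of the 14, 11 were positive, against 47% of all genes, and the median log2 fold change was 0.03. For Sptbn4, the spectrin of nodes and axon initial segments, the log2 fold change was -0.16 (SE 0.06, edgeR adjusted p = 0.504), and for Kcnab2, a potassium channel subunit gene, it was 0.11 (SE 0.06, edgeR adjusted p = 0.602). The groups did not overlap for either gene. Of 26 other immunoglobulin adhesion genes 0 passed the edgeR test and 0 were called by DESeq2, beside the same shares of 0.0224% and 1.42%. At an unadjusted p under 0.05, 4 were higher and 0 lower, beside 5.07% and 3.95% of all genes. Of the 26, 21 were positive, with a median of 0.14, beside 47% of all genes positive. For Ncam2, a neural cell adhesion molecule gene, the log2 fold change was 0.28 (SE 0.09), and for Mdga2, which encodes an inhibitor of neuroligin binding, it was 0.26 (SE 0.09), each without overlap between the groups and with an edgeR adjusted p = 0.470. The cortical marker level moved with the groups here too, and its part in these lists was not tested.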

How the data were processed

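RNA from 6 striata was sequenced, 3 per group. Per the submitters' processing notes, bcl2fastq 2.20.0, Trimmomatic, HISAT2 2.1.0, StringTie 2.1.3b and the build mm10 were used; their order and settings, and whether counting used strand, are not stated. The table deposited by the authors gives whole-number read counts per RefSeq gene, not normalized. Its 12 FPKM and TPM columns were not used. Their names, like those of the counts, show a group and no particular animal. A comparison of the libraries found every pair to differ by more than sampling noise (chi-square per gene of 8.40 or more).

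Counts were filtered with filterByExpr, scaled by TMM and tested with the quasi-likelihood test of edgeR 4.0.16 (R 4.3.3) over all 17874 genes, with Benjamini-Hochberg adjustment at 0.05. DESeq2 1.42.0, limma-voom (limma 3.58.1), other size factors, no filter, each library left out and a covariate (the mean log2 CPM of the 14 cortical markers, with 0.5 added to counts) were alternatives. Offspring sex was left out of the fits, as columns are not tied to labelled animals and sex was not inferred from expression. Each SE is the size of the fold change over the square root of F. Levels per kb use the union of exons of GENCODE vM21 (GRCm38), which matched 10 of 10 members, and coordinates are from RefSeq GRCm38.p6. Near-identical copies were looked for with blastn 2.17.0 (95% identity over 200 bases), and the single match was Cntn5 with Gm32710, over 203 bases. Gm32710 is the antisense-strand gene whose exons overlap those of Cntn5 by 290 bases, so this match need not be a separate copy. Counting errors cover sampling of reads only.

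The members, the 3 lists of partners and relatives, and the marker lists were chosen with earlier results of these data known. Named genes are the members and up to 2 genes of lowest p per list of partners or relatives. The 3 genes nearest to Dscam in profile, among genes averaging 1 or more on the log2 CPM scale, are named too. Chl1 and Cntnap1 were named for their position and their pairing after their values were seen. Marker lists whose fold changes are not given with the results had median log2 fold changes of -0.06 (interneurons), -0.10 (oligodendrocyte precursors), 0.01 (astrocytes), -0.06 (microglia), -0.08 (endothelium), -3.63 (choroid plexus) and -0.37 (ependyma). In these lists 0 genes passed the edgeR test, where 0.0224% of all genes tested did. At an unadjusted p under 0.05, 1 of 11 interneuron markers was higher and 2 were lower. At that p 8 of 9 choroid plexus and 2 of 8 ependymal markers tested were lower. Over all genes tested, 5.07% were higher and 3.95% lower at that p. DESeq2 called 0 genes of these lists, against 1.42% of the genes to which it gave an adjusted p.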

Additional observations from a re-analysis of the deposited data

How the results depend on the processing

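Over 12 alternatives for each of the 10 members, 107 of 120 log2 fold changes kept their sign and their side of the threshold, 12 changed sign and 1 passed the test, that of Dscam in DESeq2 (0.39). Dscam, Sdk2, Cntn1 and Cntn3 changed sign under none of these alternatives. The count of all genes past the test was 4 in edgeR, 183 in DESeq2, 1 with cortical markers as a covariate and 0 without saline-sired libraries 3 and 4, which leaves a single saline-sired library that is assumed to vary like the others. It lay between 1 and 4 without each library in turn. Members past the test numbered 0 in edgeR, with 2 at an unadjusted p under 0.05, and 1 in DESeq2, with 0 in limma-voom and 0 without each library in turn. Without saline-sired libraries 3 and 4 the log2 fold change was -0.23 for Sdk1, 0.14 for Cntn2, -0.12 for Cntn4 and -0.046 for Cntn6. With cortical markers as a covariate it was -0.012 for Dscaml1, -0.10 for Sdk1, 0.10 for Cntn2 and -0.16 for Cntn4. Without each library in turn it ran from -0.17 to 0.018 for Cntn2, from -0.013 to 0.19 for Cntn4 and from -0.14 to 0.032 for Cntn5. The causes were not tested beyond these fits. With the longest transcript as the length, 7 of 10 levels per kb moved by more than their SD, that of Cntn1 to 66.0 CPM per kb. Sdk1, with 178 to 341 counts, has the least depth. No paired analysis was possible because the columns of the table do not carry the replicate numbers of the labels, and offspring sex, listed as an alternative, was not run because columns are not tied to labelled animals and sex was not inferred from expression.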
